A study of Mus musculus with 6 samples.

Results

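The chromosome 19 microRNA cluster (C19MC) is a primate-specific array of related miRNA genes, and the probes for its human miRNAs were read here on arrays hybridised with mouse RNA. The set comprised every human-named probe for miR-512 or for miR-515 to miR-527, with any letter, arm, star, copy or precursor suffix, and with mismatch probes left out. This gave 69 of the 2990 probes on the array, and all 14 numbers had at least 2 probes. By name, 46 were mature-arm probes, 10 were star probes for the minor arm, and 13 ended in -P, which was read as a probe for the precursor region because the labels do not define it. Of 1182 miRNA genes with Mir symbols in the mouse RefSeq table (GRCm38.p6), 0 carried a number of this range, and the array held 0 mouse-named probes with such a number.

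The samples were bone marrow hematopoietic stem and progenitor cells (Lin-cKit+) from 10-week-old female C57BL/6 mice. The 3 cKO mice were Rprtf/f, Mx1-Cre+, and the 3 Ctrl mice were Rprtf/f, Mx1-Cre- littermates, so both groups carried the floxed alleles of Raptor, an essential subunit of the kinase complex mTORC1. Both groups received 7 injections of 400 µg polyinosinic:polycytidylic acid (pIpC), and cells were taken 10 days after the last. Mx1-Cre is switched on by interferon and acts in more cells than those of the blood, and the deletion itself was not measured by these miRNA probes. The study asked how mTORC1 affects miRNA biogenesis; for the C19MC probes the comparison gives the level and the difference of signals that have no mouse gene of the same number. The blood miRNA miR-223 read 15.1 to 38.2 on the 6 arrays, and 3 of 6 blood marker probes exceeded the random-sequence level on every array. Those of miR-126-3p, miR-142-3p and miR-451 did not. Of 6 probes for miRNAs known from other tissues, 2 also exceeded it on every array, miR-375 at 2.26 to 3.87 and miR-9 at 0.410 to 0.657.

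In primates, C19MC is an imprinted cluster active mainly in the placenta and in early embryonic cells, and it arose by repeated duplication, so many of its miRNAs resemble each other closely. Several carry the AAGUGC-type seed, the stretch near the 5′ end that pairs with targets. Mouse miRNAs of the miR-17, miR-290 and miR-302 groups carry seeds of this type, and they were taken here as mouse relatives by seed. Other mouse miRNAs with AAGUGC near the 5′ end, such as miR-350-5p, were not in that list. As general annotation, not checked against sequence here, human miR-519d shares its seed with miR-17, and human miR-520a-3p, miR-520b, miR-520c-3p, miR-520d-3p and miR-520e share theirs with miR-302.

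Mouse relatives are shown because their seeds are of the type that several of these human miRNAs carry. The human sequences of the probes were not used here, so likeness outside the seed was not compared. Sequences are mature miRNAs from RefSeq, GRCm38.p6, written 5′ to 3′, with bases 2 to 8 in capitals; array probes without an arm were matched to the arm that is not starred on the array.
mmu-miR-17-5p: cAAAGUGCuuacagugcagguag
mmu-miR-20a-5p: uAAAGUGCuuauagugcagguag
mmu-miR-93-5p: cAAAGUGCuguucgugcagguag
mmu-miR-106b-5p: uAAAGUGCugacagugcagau
mmu-miR-291a-3p: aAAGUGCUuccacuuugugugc
mmu-miR-294-3p: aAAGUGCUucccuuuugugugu
mmu-miR-302b-3p: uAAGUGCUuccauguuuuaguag
The first 4 share the seed AAAGUGC and the last 3 the seed AAGUGCU. They are encoded at chr14:115043684-115043706 (miR-17-5p, plus strand), chr14:115044183-115044205 (miR-20a-5p, plus strand), chr5:138165574-138165596 (miR-93-5p, minus strand), chr5:138165787-138165807 (miR-106b-5p, minus strand), chr7:3218968-3218989 (miR-291a-3p, plus strand), chr7:3220691-3220712 (miR-294-3p, plus strand) and chr3:127545275-127545297 (miR-302b-3p, plus strand).

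In median and mean the C19MC probes lay close to random sequence. All values are linear relative intensities as deposited. The median over the 69 probes was 0.356, 0.330 and 0.338 on cKO arrays 1 to 3 and 0.327, 0.361 and 0.323 on Ctrl arrays 1 to 3. The 38 random-sequence probes had medians of 0.369, 0.342 and 0.337 on the cKO arrays and 0.354, 0.383 and 0.354 on the Ctrl arrays. On cKO arrays 49.3% to 59.4% of the C19MC probes were below the random-sequence median, and on Ctrl arrays 59.4% to 71.0%. The C19MC mean of each array stood close to that of random sequence: on the log2 scale it differed by 0.0013, 0.0015 and -0.00084 on the cKO arrays and by -0.041, -0.018 and -0.050 on the Ctrl arrays. The C19MC mean includes its 2 brightest probes, miR-526b and miR-521-2-P, which raise it. The random-sequence mean is likewise raised by its own brightest probe. How close the means would be without these was not tested.

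The random-sequence level of an array was set at the 95th percentile of its 38 random probes, which 5.26% of them exceed by construction, and a C19MC probe was counted as above it on each array separately. Of the 69 C19MC probes 6 exceeded it on all 3 cKO arrays and 3 on all 3 Ctrl arrays, or 8.70% and 4.35%. Of the 38 random-sequence probes 1 did so on all 3 cKO arrays and 2 on all 3 Ctrl arrays, or 2.63% and 5.26%. Over all 2913 miRNA-named probes the shares were 49.6% on the cKO arrays and 39.3% on the Ctrl arrays. No array put more than 15.9% of the C19MC probes above the level. On none of the 6 arrays was it exceeded by 52 of the 69, or 75.4%, against 34 of the 38 random-sequence probes, or 89.5%. Among the other 1668 human-named probes, 55.2% to 59.95% exceeded it on single cKO arrays and 42.1% to 48.9% on single Ctrl arrays. These 1668 were not sorted by whether mouse has the same miRNA. They include the probes of miR-548, miR-498, miR-1283 and miR-1323. For the 1083 mouse-named probes the shares were 58.4% to 63.8% on cKO arrays and 46.4% to 52.7% on Ctrl arrays. The miR-548 family, another miRNA family restricted to primates, stood between C19MC and the 1668 human-named probes of which it is a part. Of its 56 probes 12 exceeded the level on all 3 cKO arrays and 11 on all 3 Ctrl arrays, or 21.4% and 19.6%. For the 1668 these shares were 49.4% and 38.5%. These shares describe the probe sets, whose members are no replicates of each other, and the difference between sets was not tested.

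The 3 kinds of C19MC probe gave similar low levels. Above the random-sequence level on all 3 cKO arrays were 3 of 46 mature-arm, 1 of 10 star and 2 of 13 precursor probes, and on all 3 Ctrl arrays 1 of each kind. Median intensity ran over the cKO arrays from 0.334 to 0.354 for mature-arm probes, from 0.327 to 0.374 for star probes and from 0.327 to 0.359 for precursor probes. Over the Ctrl arrays the ranges were 0.324 to 0.375, 0.333 to 0.344 and 0.308 to 0.353, in the same order of kinds. Other human-named probes of the same kinds had a larger share above the level on all 3 cKO arrays, 53.4% of mature-arm, 37.9% of star and 45.8% of precursor probes. On all 3 Ctrl arrays those shares were 41.0%, 27.8% and 36.7%.

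Among the 69 probes 2 stood clear of the rest, and both did so in both genotypes. The miR-526b probe, for a mature arm, read 1.76, 1.39 and 1.13 in cKO mice and 1.17, 1.62 and 1.42 in Ctrl mice. That was 3.31 to 4.76 times the random-sequence median of the same array, and the groups overlapped. The miR-521-2-P probe, for the precursor of the second miR-521 gene copy, read 1.13, 1.08 and 0.716 in cKO mice and 1.01, 0.899 and 1.13 in Ctrl mice. Its groups overlapped too, with the lowest value on cKO array 3. Of the 69 probes, only miR-526b exceeded the brightest random-sequence probe on all 3 cKO arrays, while it and miR-521-2-P did so on all 3 Ctrl arrays. The brightest random probe itself read 0.650 to 0.913 on cKO arrays and 0.650 to 1.06 on Ctrl arrays. In scanner units, restored as described for the processing, miR-526b reached 1068 to 1550 on cKO arrays and 1057 to 1347 on Ctrl arrays, of a limit of 65535. What these 2 probes bound was not tested.

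The other 67 probes read 0.221 to 0.653 on every array. Just above the level stood miR-512-5p, miR-520d-3p, miR-518b-P and miR-519e*. The miR-512-5p probe read 0.551, 0.653 and 0.406 in cKO mice and 0.476, 0.443 and 0.421 in Ctrl mice, above the level on all 3 cKO arrays and on 1 Ctrl array. The miR-520d-3p probe read 0.521, 0.489 and 0.378 in cKO mice and 0.498, 0.530 and 0.396 in Ctrl mice, above the level on 3 cKO and 2 Ctrl arrays. Both probes overlapped between the groups, and in both cKO array 3 was the lowest of the 6. The miR-518b-P probe read 0.481, 0.597 and 0.394 in cKO mice and 0.410, 0.562 and 0.356 in Ctrl mice, above the level on 3 cKO arrays and 1 Ctrl array. The miR-519e* probe read 0.475, 0.454 and 0.383 in cKO mice and 0.446, 0.499 and 0.468 in Ctrl mice, and was above the level on all 6 arrays. Neither separated the genotypes. The next 4 in brightness, miR-517b, miR-518b, miR-525-5p and miR-515-3p, had geometric means of 0.423, 0.413, 0.407 and 0.401 over the 6 arrays and exceeded the level on 4 arrays or fewer. The remaining 59 had geometric means from 0.272 to 0.401. The dimmest were miR-526a-2-P at 0.272, miR-517a at 0.276 and miR-518c at 0.279, each under the level on every array.

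Several of these values moved with the array. Of the 10 brightest C19MC probes 6 had their lowest value on cKO array 3 and 5 their highest on Ctrl array 2. The random-sequence probes did likewise, with 16 of 38 lowest on cKO array 3 and 16 highest on Ctrl array 2. Over all 69 C19MC probes, 30 were highest on Ctrl array 2 and 22 on cKO array 1, the arrays with the highest random-sequence medians. The lowest values of the 69 were more evenly spread, with 19 on cKO array 3, 17 on cKO array 2 and 15 each on Ctrl arrays 1 and 3.

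No C19MC probe passed the test between genotypes. With limma on log2 values over all 2913 miRNA-named probes (two-sided, Benjamini-Hochberg adjusted p under 0.05), 0 of the 69 were called, 0 had an unadjusted p under 0.05, and the smallest adjusted p was 0.368. Over all tested probes 4.12% were called, 3.91% as higher and 0.206% as lower, and 14.9% had an unadjusted p under 0.05. The log2 differences, cKO minus Ctrl, ran from -0.21 for miR-517b to 0.26 for miR-521-1-P, with a median of -0.0099 over the 69 and 0.027 over all tested probes. Of the 69 differences 28 were above 0 and 41 below, and 46 were within 0.1 of 0. The SD of the difference over probes was 0.097 for C19MC, 0.10 for the 38 random-sequence probes and 0.39 over all tested probes.

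By kind, the median log2 difference was -0.012 for 46 mature-arm probes, -0.030 for 10 star probes and 0.038 for 13 precursor probes, and in each kind 0 passed the test. The cKO arrays averaged -1.50 ± 0.069 and the Ctrl arrays -1.49 ± 0.093 as mean log2 value of mature-arm probes (SD, n = 3 each). For star probes the cKO mean was -1.55 ± 0.099 and the Ctrl mean -1.54 ± 0.045, and for precursor probes they were -1.45 ± 0.076 in cKO against -1.50 ± 0.092 in Ctrl, again with 3 arrays a group. Each difference was smaller than the spread between arrays of a group.

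The precision of these differences can be read from their intervals. The SE of the log2 difference ran from 0.083 for miR-518c to 0.24 for miR-526b, with a median of 0.11. All 69 of the 95% intervals from limma included 0, 1 reached past a 1.5-fold change in either direction, and 0 reached past a 2-fold change. For miR-526b the difference was 0.01 with an interval from -0.52 to 0.55, which is 0.696- to 1.46-fold (limma adjusted p = 0.995). For miR-521-2-P it was -0.08 with an interval from -0.56 to 0.41, or 0.676- to 1.32-fold (limma adjusted p = 0.953). The interval that passed 1.5-fold was that of miR-512-5p, whose difference of 0.24 had a range from -0.12 to 0.60 (limma adjusted p = 0.604). These values include the background, so a fold on them understates a change of any signal that lies above it.

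For 4 of the 69 probes the cKO and Ctrl values were fully separated. All 3 cKO arrays were above all 3 Ctrl arrays for 1 probe, or 1.45%, against 13.8% of all tested probes. All 3 cKO arrays were below for 3 probes, or 4.35%, against 4.36% of all tested probes. The higher probe was miR-521-1-P, at 0.318, 0.303 and 0.420 in cKO mice and 0.274, 0.289 and 0.300 in Ctrl mice, above the random-sequence level on cKO array 3 alone. The lower probes were miR-518d-3p, miR-519c-3p and miR-519c-5p, with log2 differences of -0.12, -0.15 and -0.11, and all 3 were under the level on every array. These 4 were named after their values were seen.

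Although dim, the probes kept much of their order across arrays. Without the 2 brightest, the log2 values of the other 67 probes correlated between arrays at Pearson r from 0.66 to 0.86 within cKO, from 0.72 to 0.79 within Ctrl and from 0.61 to 0.82 across genotypes. The probes share printing, array and base composition in each pair, so this describes how far the order of dim probes repeats. The SD of the mean log2 value over these 67 probes was 0.20, against a median SD of 0.11 within cKO and 0.12 within Ctrl for a single probe. Random-sequence probes had an SD of 0.23 over probes and a median SD of 0.11 within either genotype.

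As general annotation, again not checked against sequence, 15 of the probes fall into 5 sets whose mature miRNAs are listed with an identical sequence, a choice made with the values known. Of these 15 probes 14 were under the random-sequence level on every array, and 1, miR-517b, exceeded it on 2 cKO and 2 Ctrl arrays. The miR-517b probe read 0.444, 0.347 and 0.395 in cKO mice and 0.449, 0.496 and 0.422 in Ctrl mice. The miR-517a probe of the same set read 0.274, 0.245 and 0.284 in cKO mice and 0.288, 0.259 and 0.313 in Ctrl mice. In both probes the genotypes overlapped.

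The probes for miR-521 differed in whether they exceeded the random-sequence level. The probe of the second gene copy, miR-521-2-P, exceeded it on all 6 arrays. That of the first copy, miR-521-1-P, did so on 1 cKO array and 0 Ctrl arrays, and the mature miR-521 probe on 0 arrays, at 0.299 to 0.343 in cKO mice and 0.291 to 0.337 in Ctrl mice. The 3 probes for miR-526a, miR-526a-1-P and miR-526a-2-P were all under the level on every array.

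The miR-519d probe, whose human miRNA shares the miR-17 seed, stayed under the random-sequence level while the mouse miR-17 probe was far above it. The miR-519d probe read 0.304, 0.282 and 0.307 in cKO mice and 0.291, 0.323 and 0.309 in Ctrl mice. On the same arrays the mouse miR-17 probe read 5.57, 9.80 and 8.44 in cKO mice and 3.11, 3.37 and 3.35 in Ctrl mice, and every cKO value exceeded every Ctrl value. Mouse miR-17, an oncogenic miRNA of progenitor cells, was higher in cKO (log2 difference 1.24, limma adjusted p = 0.0356), whereas miR-519d differed by -0.04. The difference between these 2 changes was not tested. Among the probes with the miR-302 seed, miR-520a-3p, miR-520b, miR-520c-3p and miR-520e were under the level on every array, and miR-520d-3p exceeded it on 3 cKO and 2 Ctrl arrays. The mouse miR-302 probes differed among themselves. The miR-302b probe read 0.299 to 0.353 in cKO and 0.355 to 0.368 in Ctrl, under the level on every array. Those of miR-302a and miR-302c each exceeded it on 2 cKO and 2 Ctrl arrays. The miR-302d probe, at 0.379 to 0.488 in cKO and 0.494 to 0.806 in Ctrl, exceeded it on 3 cKO and 3 Ctrl arrays. For miR-302b and miR-302d every cKO value was below every Ctrl value, and neither passed the test (limma adjusted p = 0.599 and 0.272). For miR-302a and miR-302c the groups overlapped.

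The list of mouse relatives held 17 probes of the miR-17, miR-290 and miR-302 groups. By RefSeq sequence 14 of them carry AAGUGC within their first 8 bases, miR-293 does not, and miR-292-3p and miR-302a were not compared. Of the 14 probes 10 exceeded the random-sequence level on all 3 cKO arrays and 10 on all 3 Ctrl arrays. The test called 3 of the 14 as higher in cKO, those of miR-17, miR-20a and miR-106a, and 0 as lower, against 4.12% of all tested probes called in either direction. Their median log2 difference was 0.014, against 0.027 over all tested probes. The brightest 4 were miR-20b, miR-17, miR-20a and miR-290-3p, with averages of 9.60, 7.94, 5.92 and 2.47 in cKO and 4.59, 3.28, 2.17 and 3.36 in Ctrl. For miR-20b, miR-17 and miR-20a every cKO value was above every Ctrl value, and for miR-290-3p every cKO value was below. Mouse miR-291a-3p, known from embryonic stem cells, read 0.345 to 0.365 in cKO and 0.326 to 0.370 in Ctrl, under the level on every array.

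The number range leaves out 3 miRNAs of the same human cluster, miR-498, miR-1283 and miR-1323, which had 7 probes on the array. Of these 3 exceeded the random-sequence level on all 6 arrays, those of miR-498, miR-1323 and miR-1323-P. The miR-498 probe was the brightest, at 6.21, 4.97 and 2.26 in cKO mice and 3.997, 4.22 and 2.59 in Ctrl mice, with overlapping groups. The miR-1323 probe read 1.26, 1.15 and 0.673 in cKO mice and 0.919, 1.16 and 0.824 in Ctrl mice. In both probes cKO array 3 was the lowest, as it was for miR-526b and miR-521-2-P. The 4 other probes, for miR-1283 and the miR-498 precursor, read 0.264 to 0.442 on every array. None of the 7 passed limma's test (0 at an unadjusted p under 0.05), and the miR-498 difference was 0.23 ± 0.39 on the log2 scale (SE; limma adjusted p = 0.890).

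The human miR-371 to miR-373 group, a neighbour of C19MC on human chromosome 19 whose mouse relatives are the miR-290 group, gave 4 of 6 probes above the level on all 6 arrays. The brightest, miR-371-3p, read 3.72, 3.04 and 1.84 in cKO mice and 2.58, 3.22 and 2.37 in Ctrl mice. The groups overlapped, and 0 of the 6 passed limma's test or had an unadjusted p under 0.05.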

How the data were processed

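Total RNA (5 µg) was biotin-labelled by reverse transcription, per the labels' protocols, and the arrays were read on an Axon 4000B scanner. The authors' deposited table holds linear relative intensity for 2990 probes on 6 arrays. How the image was quantified, background-corrected and normalized is not given in the sources. Multiplying each array by 1 constant (829 to 987.5) sets its highest value to 65535 and makes at least 99.97% of values whole multiples of 0.25 (tolerance 0.01 of that step), with a lowest scanner value of 178.5. Log2 of the deposited intensity was tested without a floor or further scaling, with limma 3.58.1 in R 4.3.3 (intensity trend) over 2913 miRNA-named probes, mismatch probes included and control, random-sequence and ultraconserved-region probes left out. Summaries used Python 3.11.15. The number of arrays limits the precision, and separate mice are given by the titles.

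The members and lists were chosen with earlier results of these data known. Probes were named by a rule: every C19MC probe past the test, the 10 brightest, up to 5 of the largest differences per direction among those above the random-sequence level on all 3 arrays of a group, and the 3 dimmest. Others are said to have been named later or belong to listed comparisons. Alternatives covered scaling, background, floors, filters, the replicate block and leaving out each array.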

Additional observations from a re-analysis of the deposited data

How the results depend on the processing

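Under all 15 alternatives for the test between genotypes 0 C19MC probes were called by limma, with 0 to 3 at an unadjusted p under 0.05 and a smallest adjusted p of 0.0763, for miR-512-5p without cKO replicate 3. Not all of these could call a dim probe. The filter on dim probes kept 7 of the 69 in the test. With the random-sequence mean subtracted, miR-518c, miR-517a and miR-526a-2-P took a fixed floor and had a difference of 0. Floored at the random-sequence 95th percentile, each had -0.133, the difference of the floors themselves. Calls over all tested probes ran from 35 to 219 over the same alternatives. With the replicate block the count was also 0 of 69 (187 calls over all probes, 120 without the block). Deviations of arrays with the same number correlated at 0.119, 0.0699 and 0.163, and those with different numbers at -0.149 to 0.0915. Each Ctrl array correlated best with the cKO array of its own number. Because cKO array 2 correlated better with Ctrl array 1 (0.0915) than with its own number, the numbers were not taken as pairs in the main test. The mean log2 difference over the 69 probes was -0.0014. It ranged from -0.043 to 0.048 when 1 array was left out, and was -0.119 with values floored at the random-sequence 95th percentile, where most members take the floor of their array. Without the 2 brightest members it was -0.00049. The count above the random-sequence level on all 3 arrays, 6 in cKO and 3 in Ctrl, became 1 in cKO with the highest random probe as the level. It became 21 in cKO and 15 in Ctrl with the random median. With at least 2 of 3 arrays required it was 9 in cKO and 5 in Ctrl. Without Randomer 120 it was 6 in cKO and 4 in Ctrl. Of 176 values of the 13 named probes under the alternatives 16 turned sign, with no call. The 176 include values of miR-518c, miR-517a and miR-526a-2-P that a floor set, and a difference of 0 was counted as not turned. Named probes dropped by the filter on dim probes have no value there. The runs without the 2 brightest members, without Randomer 120 and on human-named probes alone were chosen after seeing the data. Signal over background limits what could be seen: 52 of 69 probes exceeded the level on no array.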
